A study of Mus musculus with 4 samples.

Results

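The genes described here are 10 genes known from studies of disease-associated microglia, the state that microglia take up around amyloid plaques and in other brain disease: Apoe, Trem2, Tyrobp, Cst7, Lpl, Spp1, Axl, Clec7a, Itgax and Cd9. They were chosen by symbol, and 9 of the 10 were analysed out of 31055 genes in the series. Clec7a, which encodes the receptor Dectin-1, was not analysed here. Hippocampal cells of 2 male Dp(10)2Yey mice and 2 male wild-type (WT) littermates on a C57BL/6J background, all 3 months old, were profiled by droplet-based single-cell RNA sequencing, with 1 library per mouse. Dp(10)2Yey mice carry a germline duplication of the segment of mouse chromosome 10 from Prmt2 to Pdxk, which corresponds to part of human chromosome 21, so that every cell has the extra copy. None of the 10 genes lies in that segment. Neither genotype carries an amyloid or tau transgene, so the values are levels in young hippocampus without such a transgene. They were measured in enzymatically dissociated cells, and the part of dissociation was not tested. Mice were prepared on 2 days, each with 1 mouse of each genotype, and which replicate number belongs to which day is not given in the sources used here, so the part of the day was not tested.

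Microglia are the resident macrophages of the brain parenchyma. In the disease-associated state they lower homeostatic genes such as P2ry12 and Tmem119 and raise genes for lipid handling, phagocytosis and lysosomes, and the full change depends on TREM2, a surface receptor for lipids and lipoproteins that signals through the adaptor TYROBP (DAP12). APOE is the main apolipoprotein of the brain and a ligand of TREM2. The later genes of the program include LPL, a lipase, CST7 (cystatin F), an inhibitor of lysosomal cathepsins, SPP1 (osteopontin), a secreted ligand of integrins, ITGAX (CD11c), an integrin alpha chain, AXL, a receptor that binds phosphatidylserine on dying cells through GAS6, and CD9, a tetraspanin of the cell surface.

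The libraries held 1014 to 2202 cells after filtering, 6246 in all, with a median of 2118 to 3703 molecules per cell, each molecule counted once by its unique molecular identifier (UMI). Only 8 barcodes were shared between any pair of libraries. Levels are given as CPM, the UMIs of the gene per 1000000 UMIs of all genes, each summed over the cells of a class in a library. Clusters were named by marker genes, and gave 2007 microglia, of which WT replicates 1 and 2 supplied 313 and 537, and Dp(10)2Yey replicates 1 and 2 supplied 377 and 780. Where 4 values are given for a class, they follow that order of libraries. The microglial cluster was led by Ccl4, Cx3cr1, Atf3, Il1a and P2ry12, among others, and of 12 markers of border macrophages (the macrophages of meninges, perivascular spaces and choroid plexus) 6 were at 0 in it, among them Lyve1, Cd163, F13a1 and Ms4a7. Border macrophages numbered 88, with only 8 in Dp(10)2Yey replicate 1, and were led by Pf4, Mrc1 and Ms4a7. Another cluster, of 560 cells led by Tyrobp, Cst3 and Gngt2, had shallow cells (median 800.0 UMIs) and held 2 microglial markers among its 10 leading genes, too few for a name, and is called the low-UMI cluster. Its summed level of 15 microglial markers was 95.8% of that in microglia. Because Tyrobp was a leading gene of this cluster and 5 of the genes (Apoe, Cd9, Cst7, Lpl and Spp1) were among the variable genes used for clustering, differences between classes are descriptions without a test.

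The upstream sequences of 3 of the genes are shown because their patterns across classes stood for the 3 kinds seen: Trem2 had 90.3% of its UMIs in microglia, Apoe was present in every class and Spp1 was held by very few cells. Each window runs from 250 bases before to 50 bases after the RefSeq start of transcription (GRCm38.p6), 5′ to 3′ on the strand of the gene. Capitals mark the letters GAGGAAG on either strand (CTTCCTC when read on the strand shown), a purine-rich run of the kind bound by PU.1, the myeloid transcription factor. Trem2 lies on the plus strand (chr17:48346151-48346450), Apoe on the minus strand (chr7:19699139-19699438) and Spp1 on the plus strand (chr5:104434861-104435160).
Trem2: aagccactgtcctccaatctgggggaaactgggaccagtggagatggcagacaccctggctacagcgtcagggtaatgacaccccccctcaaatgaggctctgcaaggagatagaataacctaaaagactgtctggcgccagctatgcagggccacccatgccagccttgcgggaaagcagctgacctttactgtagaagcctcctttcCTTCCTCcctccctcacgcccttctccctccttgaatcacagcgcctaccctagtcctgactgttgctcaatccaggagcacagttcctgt
Apoe: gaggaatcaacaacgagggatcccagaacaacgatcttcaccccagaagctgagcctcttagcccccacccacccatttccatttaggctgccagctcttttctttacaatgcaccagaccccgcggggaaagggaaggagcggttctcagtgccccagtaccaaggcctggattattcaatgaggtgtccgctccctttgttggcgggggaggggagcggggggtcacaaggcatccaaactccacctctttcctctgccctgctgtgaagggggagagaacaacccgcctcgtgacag
Spp1: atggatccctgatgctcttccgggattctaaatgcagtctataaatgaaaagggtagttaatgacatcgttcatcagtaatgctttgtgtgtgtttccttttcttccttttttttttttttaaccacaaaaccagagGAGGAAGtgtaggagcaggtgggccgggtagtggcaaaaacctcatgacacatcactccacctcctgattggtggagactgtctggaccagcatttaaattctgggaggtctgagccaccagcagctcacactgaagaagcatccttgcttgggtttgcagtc
The run starts 41 bases before the start of Trem2, on the opposite strand, and 113 bases before that of Spp1, and these letters are not in the window of Apoe. The table holds 2 further windows of Apoe and 1 of Spp1 at other starts, and the letters are in none of them. Windows were on hand for 8 of the 10 genes, and Axl was the other gene with a match. Of all 32851 promoter windows of this length in the table, 13.6% held the run on either strand, so a match is a description only.

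**Figure D1:**
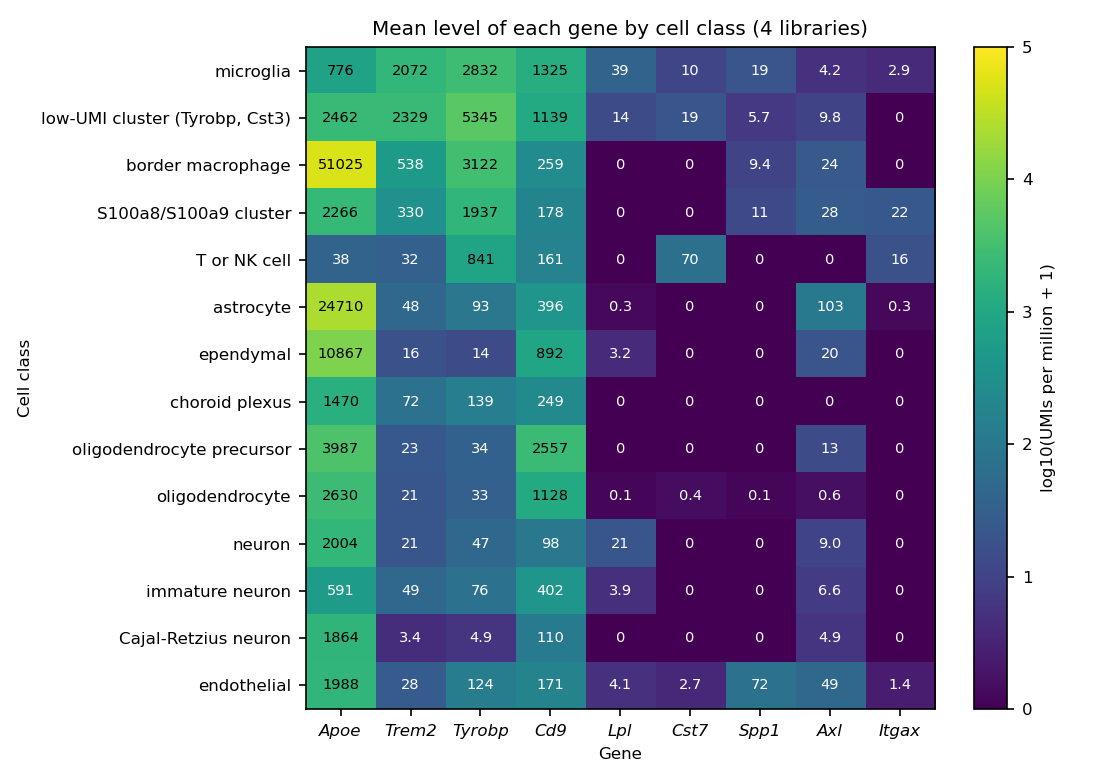
Mean level of each of the 9 genes (columns) in 14 cell classes (rows) over the 4 libraries, printed in CPM in each box and coloured by log10(CPM + 1). Apoe is brightest in border macrophages (51025) and astrocytes (24710.0), Trem2 and Tyrobp in the microglial, macrophage and low-UMI rows, and Lpl, Cst7, Spp1 and Itgax stay low in every class.

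Receptor and adaptor. Trem2 (chr17:48346401-48354147, plus strand, GRCm38) reached 2002 and 2229 CPM in the microglia of WT replicates 1 and 2, and 1945 and 2113 CPM in those of Dp(10)2Yey replicates 1 and 2. The genotypes overlapped and the libraries lay close together, with a mean of 2072 CPM ± 125 (SD, n = 4). Trem2 had 19763 UMIs in all. The low-UMI cluster had 2329 CPM ± 181 (SD, n = 4), and the values of these 2 classes overlapped. Border macrophages expressed Trem2 at 538 CPM ± 63.2 (SD, n = 4), 26.0% of the microglial level, and every library lay below every microglial value. In astrocytes, neurons, oligodendrocytes and their precursors Trem2 stood at 1.0 to 2.3% of its microglial level, and the summed microglial markers stood at 0.79 to 1.69% of theirs in the same classes. Whether these traces are microglial RNA carried into other cells was not tested. When each cell was thinned to 1000 UMIs, 85.1% of 1927 microglia had a Trem2 UMI (exact 95% binomial interval 83.4 to 86.6, counting error only), 38.7% of 62 border macrophages, and 2.89% of 381 neurons. Without thinning the shares were 98.4%, 55.7% and 4.19%.

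Tyrobp (chr7:30413760-30417585, plus strand) encodes the adaptor that TREM2 and other myeloid receptors need. Its microglial levels were 3027 and 2712 CPM in WT replicates 1 and 2 and 2987 and 2603 CPM in Dp(10)2Yey replicates 1 and 2, so replicate 1 was higher than replicate 2 in each genotype and the genotypes overlapped. Border macrophages had 3122 CPM ± 375 (SD, n = 4) against 2832 ± 207 in microglia, and these ranges overlapped. The small cluster of 22 T or NK cells had Tyrobp at 841 CPM with an SD of 983 (54 UMIs) and Trem2 at 32.5 CPM (6 UMIs), and the microglial markers there summed to 298 to 762 CPM in 3 libraries and 6562 in Dp(10)2Yey replicate 2. The low-UMI cluster had the highest level, 5345 CPM ± 443, but Tyrobp was a leading gene of that cluster. The genes whose means across the 14 classes were most like Trem2 (Pearson r of log2(CPM + 10) over 14 classes that share libraries and depth) were Csf1r (r = 0.98), the receptor for the survival factor of microglia, Aif1 (r = 0.98), which encodes IBA1, and Cd300c2 (r = 0.97). For Tyrobp they were Fcer1g (r = 0.99), a related adaptor, Cmtm7 (r = 0.98) and Laptm5 (r = 0.98).

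Lipoprotein and lipase. Apoe (chr7:19696109-19699188, minus strand) was foremost a gene of border macrophages and astrocytes at this age. In border macrophages it reached 54914 and 48265 CPM in WT and 48789.8 and 52131 CPM in Dp(10)2Yey libraries, and the genotypes overlapped. Both macrophage sub-clusters had this level: 50912 CPM ± 5605 (SD, n = 4) in 45 cells with a median of 3622 UMIs and 52453 ± 21098 in the 43 cells with a median of 814 UMIs. Astrocytes, which supply most lipoprotein to neurons, had 24710.0 CPM ± 2840 (SD, n = 4), ependymal cells 10867 ± 1777, oligodendrocyte precursors 3987 ± 129 and oligodendrocytes 2630.0 ± 192. Each of these first 4 classes lay above the next in every library. By total, astrocytes held 48.0% of all 111398 Apoe UMIs.

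Microglia had much less Apoe, at 695 and 884 CPM in WT and 656 and 866 CPM in Dp(10)2Yey libraries. Replicate 2 was higher in each genotype, the genotypes overlapped, and the mean of 776 CPM ± 116 (SD, n = 4) was 3.14% of the level in astrocytes. In the same microglia the 16 astrocyte markers summed to 0.82% of their astrocyte level and the 12 border macrophage markers to 0.96% of their macrophage level, and the part of RNA from those cells in microglial Apoe was not tested. It was unevenly spread: after thinning, 26.3% of 1927 microglia had an Apoe UMI, against 98.4% of 62 border macrophages and 99.8% of 585 astrocytes. In WT replicate 1, WT replicate 2 and Dp(10)2Yey replicate 2 the microglial cell with the most Apoe held 20.5%, 24.0% and 20.1% of the microglial Apoe UMIs of its library, and without that cell the levels were 556, 673 and 694 CPM. The genes most like Apoe across classes were Mt1 (r = 0.87), a metallothionein, 4931406C07Rik (r = 0.83) and Pex6 (r = 0.83), a peroxisomal factor.

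Lpl (chr8:68880491-68907448, plus strand), which releases fatty acids from lipoproteins, was low. In microglia it gave 23 and 229 UMIs in WT (20.5 and 99.8 CPM) and 20 and 75 UMIs in Dp(10)2Yey libraries (11.8 and 22.0 CPM). WT replicate 2 stood far above the rest, and 191 of its 229 UMIs came from a single cell. Without the cell with the most Lpl in each library the levels were 17.9, 16.8, 10.0 and 16.5 CPM. Even so, Lpl was found in 101 of the 2007 microglia when counted without thinning. Neurons, which are known to express Lpl in the hippocampus, had 20.6 CPM ± 15.5 (SD, n = 4) and overlapped with microglia, whose mean was 17.7 CPM once the 2 cells described further on were left out. No Lpl UMI was seen in the border macrophages, 0 of 62 thinned cells, which allows a share of up to 4.84% of cells with a UMI at that depth and sets no limit on cells expressing the gene.

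Late genes of the program. Cst7 (chr2:150570415-150578944, plus strand) gave 88 UMIs in microglia, at 8.0 and 16.6 CPM in WT replicates 1 and 2 and 9.4 and 7.3 CPM in Dp(10)2Yey replicates 1 and 2. WT replicate 2 was again highest. The low-UMI cluster had 10 UMIs of it. By mean level T or NK cells, where cystatin F is known to act on granule proteases, ranked first at 70.0 CPM ± 50.2 (SD, n = 4) from only 7 UMIs, and 2 of the 3 genes most like it across classes, Il7r (r = 0.96) and Ccl5 (r = 0.94), are genes of lymphocytes. Itgax (chr7:128129547-128150657, plus strand) had 35 UMIs in the whole data set, 27 of them in microglia, at 2.7 and 4.8 CPM in WT and 0.59 and 3.5 CPM in Dp(10)2Yey replicates 1 and 2. The genes closest to it across classes included Cytip (r = 0.99) and Ccr7 (r = 0.98), which are lymphocyte and dendritic cell genes, and it was also seen as 3 UMIs in T or NK cells and 3 in a cluster of 21 cells led by S100a8 and S100a9 with MHC class II genes.

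Spp1 (chr5:104435118-104441050, plus strand) was the most concentrated of all. Microglia had 2 and 106 UMIs in WT and 0 and 102 UMIs in Dp(10)2Yey libraries. A single cell held 105 of the 106 in WT replicate 2 and a single cell held 101 of the 102 in Dp(10)2Yey replicate 2, and without the cell with the most Spp1 in each library the levels were 0, 0.44, 0 and 0.29 CPM. The high libraries were thus 1 of each genotype, each through 1 cell, and 5 microglia in all had a Spp1 UMI. By mean level endothelial cells ranked first, at 91.5 and 141 CPM in WT replicates 1 and 2 and 11.0 and 45.1 CPM in Dp(10)2Yey replicates 1 and 2, from 22 of 305 cells. Border macrophages, which elsewhere are a known source of osteopontin, gave 5 UMIs, all in Dp(10)2Yey replicate 2.

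Axl and Cd9 followed other cell types. Axl (chr7:25757273-25788705, minus strand) was highest in astrocytes, 103 CPM ± 17.7 (SD, n = 4), and next in endothelial cells, 48.5 ± 19.0, with every astrocyte value above every endothelial value. Microglia had 4.5 and 3.9 CPM in WT and 5.3 and 3.2 CPM in Dp(10)2Yey replicates 1 and 2, from 34 UMIs. Its closest genes were Vcl (r = 0.90), Cpt1a (r = 0.87) and S1pr1 (r = 0.87). Cd9 (chr6:125460266-125494791, minus strand) was highest in oligodendrocyte precursors, 2557 CPM ± 325 (SD, n = 4), followed by microglia at 1334 and 1421 CPM in WT and 1213 and 1331 CPM in Dp(10)2Yey replicates 1 and 2. Oligodendrocytes had 1128 CPM ± 127 and overlapped with microglia. Of 1927 thinned microglia 68.2% had a Cd9 UMI, against 3.23% of 62 border macrophages. The genes most like it were Spsb1 (r = 0.83), Tgfa (r = 0.81) and Selenos (r = 0.79), and for Lpl they were Ppfia4, Upk1b and Slmap (r = 0.81 to 0.83) and for Spp1 the vascular genes Cracr2b, Arap3 and Acvrl1 (r = 0.97 each).

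Cells holding several of the genes were rare. After thinning to 1000 UMIs, 43 of 1927 microglia (2.23%, exact 95% interval 1.62 to 2.99) had a UMI of at least 2 of the 6 genes other than Apoe, Trem2 and Tyrobp, and 3 had at least 3. By library the share was 1.80 and 3.29% in WT and 2.19 and 1.69% in Dp(10)2Yey, with overlapping exact intervals. The same count was 1 of 922 in oligodendrocytes, 0 of 381 in neurons and 0 of 62 in border macrophages, and 23 of 585 in astrocytes, which express Axl and Cd9. The low-UMI cluster had 8 of 201 (3.98%) and endothelial cells 5 of 219 (2.28%), so such cells were not particular to microglia. With Cd9 set aside and without thinning, 25 of the 2007 microglia held at least 2 of Cst7, Lpl, Spp1, Axl and Itgax, 2 and 7 in WT and 5 and 11 in Dp(10)2Yey libraries. A subset of 7 held at least 3, 1 and 2 in WT and 0 and 4 in Dp(10)2Yey libraries.

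**Figure D2:**
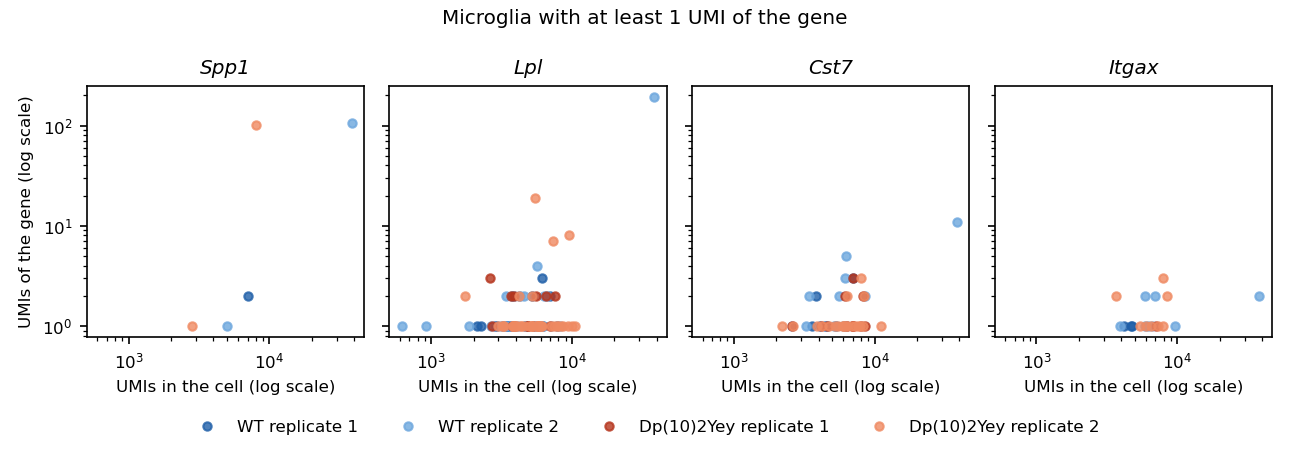
Each point is a microglial cell with at least 1 UMI of Spp1, Lpl, Cst7 or Itgax, plotted by all UMIs in the cell (x, log scale) and UMIs of the gene (y, log scale), coloured by library. The cell at 38267 UMIs in WT replicate 2 (105 Spp1, 191 Lpl) and the cell at 7966 UMIs in Dp(10)2Yey replicate 2 (101 Spp1) stand apart from the rest.

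The pair of cells with most Spp1 differed from each other. The cell of WT replicate 2 had 38267 UMIs, where the median microglial cell of that library had 4180.0, and carried 191 Lpl, 105 Spp1, 11 Cst7, 132 Cd9, 170 Tyrobp and 49 Trem2 UMIs but only 18 of Apoe. It also held 69 of the 98 UMIs of Lgals3 (galectin-3) and 41 of the 133 of Capg in the microglia of its library, 59 of Csf1 and 300 of Ccl4. Of the other program genes looked up, it had 0 UMIs of Fabp5 and Gpnmb and 1 of Igf1. Among microglial genes it had 1 UMI each of P2ry12 and Tmem119 but 67 of Cx3cr1 and 129 of C1qa. The cell of Dp(10)2Yey replicate 2 had 7966 UMIs against a median of 4144.0, with 593 Apoe, 101 Spp1, 3 Cst7, 3 Axl, 3 Itgax and 1 Lpl UMIs. It had 3 UMIs of Lgals3, 2 each of Fabp5 and Igf1, and 0 of Capg, Csf1 and Gpnmb, and 3 of P2ry12, 1 of Tmem119, 18 of Cx3cr1 and 48 of C1qa. Neither was called a doublet, and both had 0 UMIs of Mrc1, Pf4, Ttr and Aqp4, markers of macrophages, choroid plexus and astrocytes.

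Microglial clusters made without the 10 genes differed in their Apoe. When the genes were left out of clustering at a finer resolution of 0.5, microglia fell into a cluster of 1041 cells led by Rgs2, Klf2 and Klf4, one of 586 cells led by Tnf, Gpr84 and Il1a, and one of 372 cells led by Hspa1b. Apoe was at 369, 461, 594 and 406 CPM in the Rgs2 cluster and at 1132, 1555, 774 and 1493 CPM in the Tnf cluster (WT replicates 1 and 2, Dp(10)2Yey replicates 1 and 2), so the Tnf cluster was higher in every library. Single cells held 160 of 460, 487 of 1185, 64 of 545 and 593 of 1860 Apoe UMIs of the Tnf cluster, and without the cell with the most Apoe in each library it stood at 751, 923, 689 and 1024 CPM against 321, 426, 557 and 381 CPM in the Rgs2 cluster. Cst7 was at 3.7 CPM ± 2.6 (SD, n = 4) in the Rgs2 cluster and 18.2 ± 7.4 in the Tnf cluster. Without the cell with the most Cst7 in each library the Tnf cluster stood at 5.0, 15.2, 12.9 and 12.1 CPM in place of 12.3, 28.9, 17.0 and 14.5 CPM. Without the cell with the most Lpl in each library, Lpl was at 22.5, 20.7, 12.9 and 27.4 CPM in the Tnf cluster. The same removal left 9.5, 9.0, 6.6 and 7.6 CPM in the Rgs2 cluster, lower in every library. Tyrobp was at 3128, 2976, 3146 and 2792 CPM in the Tnf cluster and 2646, 2426, 2760 and 2392 CPM in the Rgs2 cluster. In the Hspa1b cluster Tyrobp was higher still in every library, at 3847, 3220, 3230 and 2810 CPM. The Hspa1b cluster had Cst7 at 16.4, 23.5, 4.5 and 7.2 CPM, overlapping with the Tnf cluster and higher than it in WT replicate 1, and Apoe at 680, 921, 481 and 599 CPM, above the Rgs2 cluster in 3 of 4 libraries. The Tnf cluster held 209 of the 210 microglial Spp1 UMIs, 23 of the 27 of Itgax, 57 of the 88 of Cst7 and 21 of the 34 of Axl. Single cells of WT replicate 2 and Dp(10)2Yey replicate 2 gave 105 and 101 of those Spp1 UMIs. Axl, with 11 UMIs in the Rgs2 cluster, was lower there than in the Tnf cluster except in Dp(10)2Yey replicate 1 (6.5 against 4.3 CPM). P2ry12, a homeostatic gene, was at 2296 ± 191 CPM in the Rgs2 cluster and 1801 ± 64.9 in the Tnf cluster, where every library was lower. Trem2, by contrast, was at 2015 ± 122 and 1981 ± 111 CPM in these clusters, which overlapped, and at 2471 ± 198 in the Hspa1b cluster. Of the 25 microglia with at least 2 of the 5 rare genes, 18 were in the Tnf cluster, 3 in the Rgs2 cluster, 3 in the Hspa1b cluster and 1 in none of them. The Tnf cluster had the deepest cells, with a median of 5031 UMIs against 3863 and 3384.5, and Tnf, Ccl3, Ccl4 and immediate early genes are also raised by enzymatic dissociation, whose part in these levels was not tested.

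**Figure D3:**
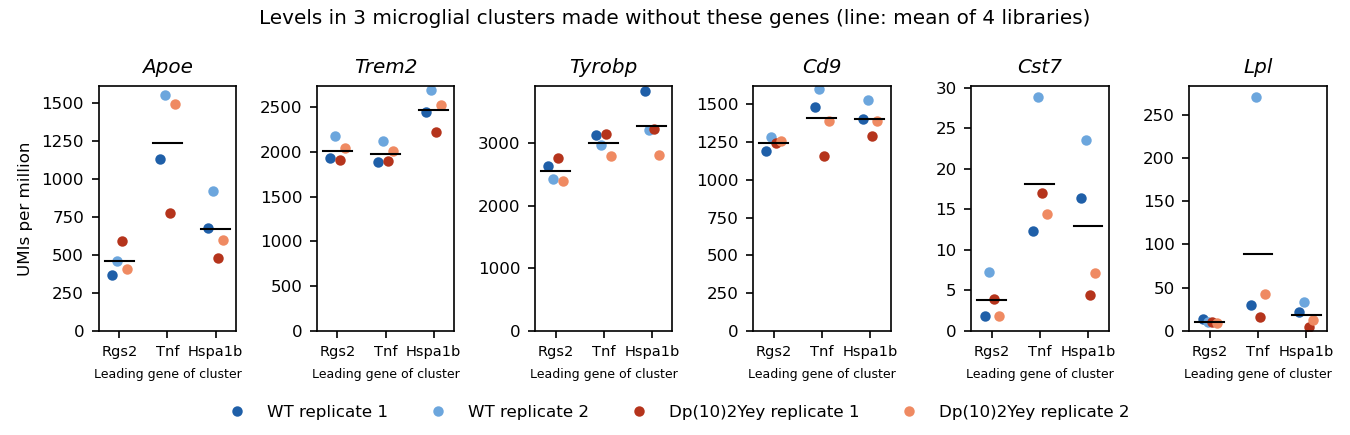
Levels (CPM) of 6 of the genes in the 3 microglial clusters made without them, named on the x axis by a leading gene; points are libraries and lines are means of the 4 libraries. Apoe, Tyrobp, Cst7 and Lpl are higher in the Tnf cluster than in the Rgs2 cluster in every library, while Trem2 overlaps between those clusters. Without 1 cell the Apoe point of WT replicate 2 in the Tnf cluster falls from 1555 to 923. The high Lpl point there (270 in WT replicate 2) falls to 20.7 without 1 cell.

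Genotype was compared by summing UMIs per library and class and testing with edgeR's quasi-likelihood test, with Benjamini-Hochberg adjustment over all genes of a class and a threshold of 0.01. Mice are the replicates (2 against 2). The p-values rest on the spread between these 4 mice, with the spread of each gene moderated towards that of the other genes in the class. None of the genes passed in any class where it was tested. Itgax was too low to be tested in any class or in all cells together, and Cst7 and Lpl were tested only in microglia and in all cells. Of 49 tests of the other 8 genes in 10 classes and in all cells together, 0 were called, where 0.0124% of all 64752 tests were called. By edgeR 8 had an unadjusted p under 0.05, where 3.13% of all tests did. DESeq2 on the same sums, with its own filtering in place of edgeR's, called 0 of 77 tests of the genes, with 5 at an unadjusted p under 0.05. Other settings changed the count. By edgeR 4 of 77 tests of the genes were called without the filter on low counts, where 233 of all 159206 tests were called. With the replicate number as a block 1 was called, Lpl in microglia, where 47 of all 64752 tests were called. In microglia 7 of the 9 genes passed the filter on low counts (Axl and Itgax did not), 0 were called, and 0% of all 9092 genes were called. On the TMM-scaled values of the fit, the Dp(10)2Yey values of 0 of the 7 lay wholly above or below the WT values, against 29.9% of all genes tested in microglia. On unscaled CPM those of Cd9 did, by the small gap from 1331 to 1334 CPM. Fewer cells of a state and less RNA per cell cannot be told apart in such sums.

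The best-expressed genes had small differences with narrow errors. The log2 fold change (Dp(10)2Yey minus WT, edgeR, ± SE) in microglia was -0.08 ± 0.13 for Trem2, -0.05 ± 0.13 for Tyrobp, -0.13 ± 0.13 for Cd9 and -0.07 ± 0.16 for Apoe. Cst7 stood at -0.74 ± 0.38 (unadjusted p = 0.0654 by edgeR) and Spp1 at -0.69 ± 0.67. The signs of both, and those of Trem2 and Apoe, turned without WT replicate 2. Lpl stood at -1.91 ± 0.41 (unadjusted p = 0.000145, adjusted p = 0.131 by edgeR), and it rests on WT replicate 2. With the 2 microglia of over 20 Spp1 UMIs left out, a choice made after seeing the data, Lpl stood at -0.05 ± 0.31, Cst7 at -0.49 ± 0.39 and Apoe at -0.26 ± 0.14, and Spp1 was too low to test. This removal is one-sided for Apoe: it takes out the Dp(10)2Yey replicate 2 cell with 593 Apoe UMIs and keeps the WT replicate 2 cell with 487. The median of the 7 genes was -0.13, against 0.0025 for all genes tested in microglia, and 0.03 without WT replicate 2.

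**Figure D4:**
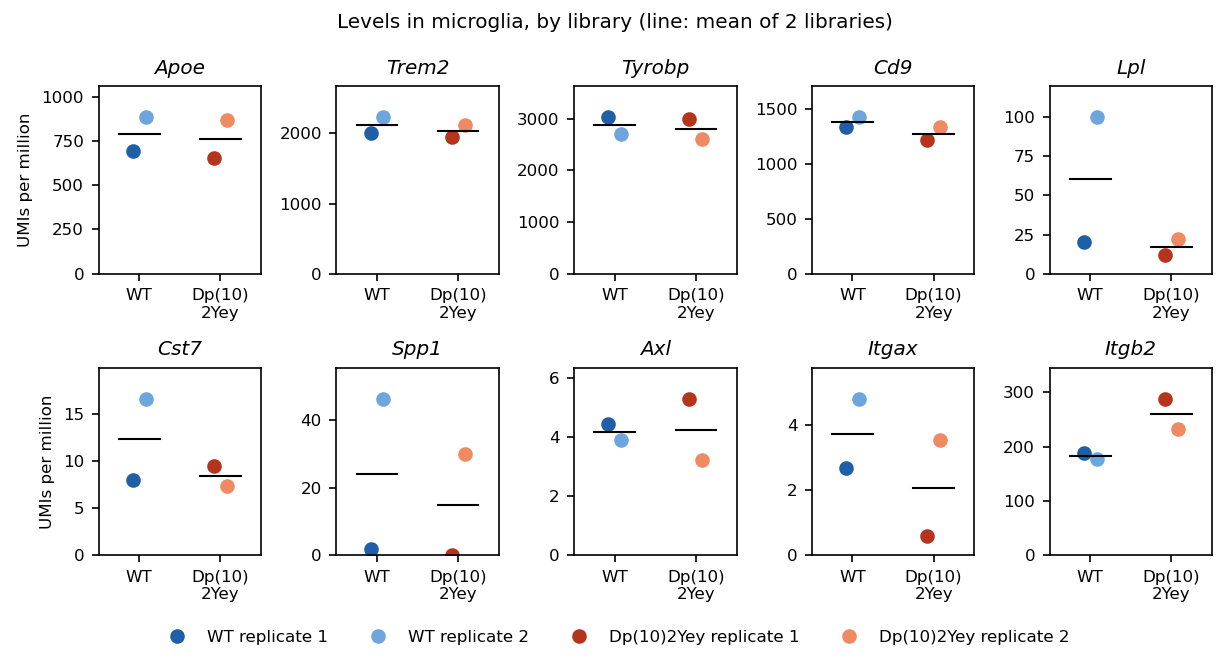
Level (CPM, y axis from 0) of the 9 genes and of Itgb2 in the microglia of each library, with WT on the left and Dp(10)2Yey on the right of each panel and a line at the mean of 2 libraries. The genotypes overlap for 8 of the 9 genes, both Dp(10)2Yey points of Cd9 (1213 and 1331) lie below both WT points (1334 and 1421), Lpl and Cst7 have their highest point in WT replicate 2, and both Dp(10)2Yey points of Itgb2 (288 and 233) lie above both WT points (189 and 177).

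**Figure D5:**
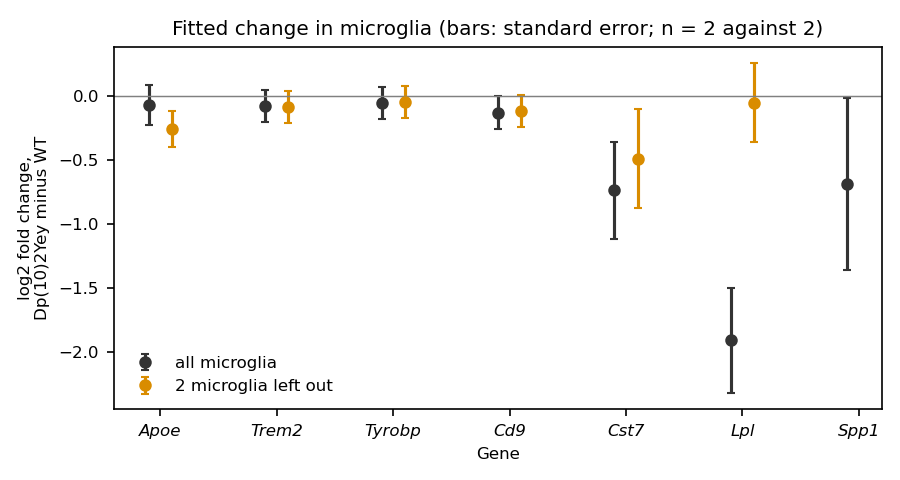
Fitted log2 fold change in microglia (Dp(10)2Yey minus WT) with its standard error for the 7 genes tested, in all microglia and with 2 cells left out. Lpl moves from -1.91 to -0.05, Spp1 has no second value, and Trem2, Tyrobp and Cd9 lie near 0 both times.

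Outside microglia, 6 of the 8 tests with an unadjusted p under 0.05 were in single classes. In the low-UMI cluster Apoe was at 836 and 1044 CPM in WT and 1410 and 6557 CPM in Dp(10)2Yey replicates 1 and 2 (log2 fold change 2.03 ± 0.50, adjusted p = 0.997 by edgeR). There 4 cells of Dp(10)2Yey replicate 2 held 319, 272, 191 and 96 of its 1160 Apoe UMIs, and without them the value was 0.66 ± 0.23. This removal, by UMIs of the gene tested and chosen after seeing the data, is one-sided and takes cells from that library only. The top cells of WT replicates 1 and 2 and Dp(10)2Yey replicate 1, with 34, 39 and 22 Apoe UMIs, stay in. Each of the 4 cells removed had 0 UMIs of Mrc1, Pf4, Ttr and Aqp4, and mitochondrial UMIs made up 4.92%, 19.2%, 21.6% and 7.51% of them in that order. In the same cluster 16 astrocyte markers summed to 216 and 429 CPM in WT and 507 and 650.1 CPM in Dp(10)2Yey, with 1 of the 16 at 0, and 11 choroid plexus markers to 0 and 22.2 CPM in WT and 55.4 and 888 CPM in Dp(10)2Yey, with 8 of the 11 at 0. The part of either in the Apoe level was not tested. Endothelial Spp1 was -1.85 ± 0.49 (unadjusted p = 0.00433, adjusted p = 0.9998 by edgeR), where 2 cells held 31 and 25 of the 63 UMIs of WT replicate 2 and 1 cell held 14 of the 20 UMIs of WT replicate 1. The immature neuron or neurogenic class held 4 markers of that class and 2 of dividing cells among its 10 leading genes. In this class Trem2 was higher by 1.67 ± 0.55, Tyrobp by 1.89 ± 0.58 and Apoe by 0.75 ± 0.30 (lowest adjusted p = 0.588 by edgeR). The 15 microglial markers summed to 54.7 and 682 CPM in WT and 2353 and 2029 CPM in Dp(10)2Yey cells of this class. Of the 15, 0 were at 0, and their part in these values was not tested. Trem2 in astrocytes was higher by 1.02 ± 0.38 (adjusted p = 0.800 by edgeR), where the same markers summed to 866, 264, 728 and 1327 CPM in the order of libraries above. Of 12 homeostatic microglial genes tested in astrocytes 3 were called higher, where 0.108% of all 6505 genes were called in either direction. They included Cx3cr1 and Selplg, higher by 4.33 ± 0.64 and 3.05 ± 0.68, with adjusted p = 6.18e-08 and 0.00686 by edgeR, and of 12 genes of the dissociation response tested there 12 were above 0 and 1, Egr1, was called (2.39 ± 0.48), with a median of 0.67 against 0.0050 for all genes tested in astrocytes. The part of microglial RNA or of dissociation in these values was not tested. The remaining test, Lpl in all cells together, was -1.42 ± 0.54 and became 0.13 ± 0.37 with those 2 microglia and the 4 cells of the low-UMI cluster left out. Border macrophages had too few cells in Dp(10)2Yey replicate 1 for a test.

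The partners of these genes were compared in microglia in the same fit, and 0 genes of any list were called. Itgb2 (chr10:77530252-77565708), the beta chain that pairs with the ITGAX chain, lies in the duplicated segment and was at 189 and 177 CPM in WT and 288 and 233 CPM in Dp(10)2Yey replicates 1 and 2, so the genotypes did not overlap, with a log2 fold change of 0.49 ± 0.15 (adjusted p = 0.921 by edgeR). Of the 6 genes of its list (ITGAX's partner, other alpha chains and a ligand) 3 were tested, and the other two, Itgam and Icam1, stood at 0.03 ± 0.13 and -0.03 ± 0.15. Of 15 genes of TREM2 and Dectin-1 signalling 14 were tested, with 8 above 0 and a median of 0.04, and those of highest level, Spi1 (PU.1), Inpp5d (SHIP1) and Ptpn6 (SHP-1), stood at 0.08 ± 0.14, 0.02 ± 0.13 and 0.14 ± 0.14. Adam17, a protease that sheds TREM2, was at -0.33 ± 0.16. For receptors and ligands of the AXL family 3 of 4 were tested: Mertk -0.04 ± 0.14, Pros1 -0.17 ± 0.15 and Gas6 0.14 ± 0.17. For lipoprotein receptors and handling 10 of 18 were tested, with 2 above 0 and a median of -0.09, and Lrp1, Abca1 and Abcg1 stood at 0.16 ± 0.14, -0.08 ± 0.15 and -0.21 ± 0.17.

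For osteopontin receptors 6 of 8 were tested, with a median of -0.01, and Itgb5, Itgb1 and Itgav stood at 0.04, 0.17 and -0.15 on the log2 scale. All 7 tetraspanins were tested, with a median of -0.04, and Cd81, Cd53 and Cd63 stood at -0.04, -0.18 and -0.07. A list of 5 genes held targets of cystatin F, other lysosomal proteins and Cstb, which is a cytosolic cathepsin inhibitor in the duplicated segment. Of these, Ctss, Lgmn and Ctsh stood at 0.08, -0.0031 and -0.02, and Cstb at 0.45 ± 0.15 (unadjusted p = 0.00776 by edgeR). The wider disease-associated program had 26 of 37 genes tested, with 12 above 0 and a median of -0.05. Its best-expressed genes Ctsd, Fth1 and B2m stood at 0.0023, 0.01 and -0.04, and Lgals3, whose genotypes overlapped, at -2.004 ± 0.53 with 9.6 and 43.6 CPM (TMM-scaled) in WT against 0.59 and 11.5 CPM in Dp(10)2Yey replicates 1 and 2, the same cell of WT replicate 2 holding most of its UMIs there. Homeostatic genes, all 18 of which were tested, had 8 above 0 and a median of -0.01, with Cst3 and Cx3cr1 each at 0.10. Of 24 genes raised by dissociation all were tested, 10 above 0 with a median of -0.03, and Jun, Fos and Junb stood at 0.0088, -0.16 and 0.01. The median over all genes tested in microglia was 0.0025.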

How the data were processed

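The authors deposited raw UMI counts per gene and barcode for each of 4 libraries, made from dissociated hippocampus with a 10x Genomics 3′ protocol and Cell Ranger 3.0.2 against a custom mm10 reference (GRCm38), per the labels and the study's methods. Only barcodes called as cells were in these counts, so free RNA was not profiled. Following the study, cells with at least 200 genes were kept, and libraries were integrated by canonical correlation (Seurat 5.3.0, R 4.3.3, 2000 variable genes, 50 dimensions, resolution 0.2) after removal of 35 globin-rich cells found at resolution 0.5. Clusters were named where at least 3 of 10 leading genes (fold with 10 CPM added) marked one class and fewer marked any other, with 1 exception. The cluster led by S100a8 and S100a9 held 4 markers of dendritic or MHC class II cells and 3 of neutrophils and was left unnamed. The endothelial cluster was named with 6 markers of its own class and 3 of red blood cells. Clusters that fell by over 90% into one cluster of the clustering without the 10 genes were joined, and the mixed immune cluster was clustered again (20 dimensions), choices made after seeing the data. No annotation by the authors was used, so class names are rebuilt. Scrublet (scanpy 1.11.5) called 52 doublets (0.833%), which were kept.

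UMIs were summed per library and class, with 2955009 to 8888570 UMIs per library, in classes of at least 10 cells in every library. Genotypes were tested with edgeR 4.0.16 (TMM, filterByExpr, quasi-likelihood test, Benjamini-Hochberg, threshold 0.01), which was tested on simulated data first. SE is the fold change divided by the root of its F statistic. Shares of cells were compared after thinning each cell to 1000 UMIs, which left out 80 of 2007 microglia and 26 of 88 border macrophages. Intervals and limits for a count of 0 (3 counts) cover counting error only. Genes were compared for likeness of class means among those at 50 CPM or more in a class. Named genes are the members, the 3 best-expressed genes of each list and those past the threshold, the 3 genes most like each member, and others chosen after their values were seen (Adam17, Cstb, Lgals3, Capg). Some genes that the rule names are not reported here. The members and lists were chosen with earlier results of these data known. The alternatives were DESeq2 1.42.0, RLE size factors, no filter, a replicate block, a threshold of 0.05, doublets or cells over 20% mitochondrial UMIs removed, the members left out of clustering, a resolution of 0.5, each library left out, means over cells, macrophages by marker UMIs, thinning to 2000 UMIs, a pseudocount of 1 CPM and, added after seeing the data, 6 cells with most Spp1 or Apoe UMIs left out.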

Additional observations from a re-analysis of the deposited data

Results flagged for a closer look

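Trem2 differed between the genotypes in opposite directions, without overlap, in 2 classes that hold it at trace level, and it passed the test in neither. Over all genes tested, 30.1% did not overlap in the immature neuron or neurogenic class, which also held markers of dividing cells, and 31.2% in endothelial cells. In the immature neuron or neurogenic class the Dp(10)2Yey values exceeded those of WT (log2 fold change 1.67, each library of the former above each of the latter). In endothelial cells the Dp(10)2Yey values lay below those of WT (-0.85), with 8 and 19 UMIs in WT replicates 1 and 2 and 0 and 14 UMIs in Dp(10)2Yey replicates 1 and 2. The 15 summed microglial markers also differed without overlap in the immature neuron or neurogenic class (54.7 and 682 CPM in WT, 2353 and 2029 CPM in Dp(10)2Yey). In endothelial cells they were at 700 and 1419 CPM in WT and 159 and 1014 CPM in Dp(10)2Yey. Neither the difference between the classes nor the part of microglial RNA was tested.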

How the results depend on the processing

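The count of 0 member tests past the threshold stayed 0 with DESeq2, RLE size factors, a threshold of 0.05, the cell filters and the other clusterings. It was 4 without the filter on low counts (Lpl in microglia and in all cells, Apoe in the low-UMI cluster, Spp1 in endothelial cells) and 3 to 5 with a library left out, where the lone sample of a genotype is assumed to vary like the other genotype's. Lpl in microglia was among those called without each library except WT replicate 2.

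With the replicate number as a block the count was 1, Lpl in microglia (log2 fold change -1.93, adjusted p = 2.79e-07 by edgeR). With that block 47 of all 64752 tests were called. Same-numbered libraries deviated together only weakly (r = 0.16 in microglia, -0.0015 in all cells), so the replicate block was kept as an alternative.

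With a library left out, the median of the 7 genes in microglia was -0.29 to 0.027, the latter without WT replicate 2. Over the same settings microglial log2 fold changes ran from -1.06 to 0.031 for Cst7, -8.63 to 3.28 for Spp1, -0.29 to 0.14 for Apoe, -0.16 to 0.047 for Tyrobp, -0.17 to 0.027 for Trem2 and -2.55 to -0.18 for Lpl. The signs that turned were those of Cst7, Spp1, Apoe and Trem2 when WT replicate 2 was dropped, of Spp1 (0.0046) and Apoe (0.11) when Dp(10)2Yey replicate 1 was, and of Tyrobp when WT replicate 1 (0.0071) or Dp(10)2Yey replicate 2 was. Spp1 stayed lower without WT replicate 1 (-1.37) and without the library of Dp(10)2Yey replicate 2. Lpl in all cells became 0.13 without the 6 cells. The cause was not tested beyond the cells named.

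The share of microglia with several genes was 4.80% at 2000 UMIs, where more molecules are seen per cell, and 1.84% to 2.59% with a library left out. Of 27 genes named as most like a member, 16 remained without cells over 20% mitochondrial UMIs, 11 with means over cells, 15 with a pseudocount of 1 CPM and 13 to 17 with a library left out, so those names are unstable. The class of highest level was the same for 8 or 9 of the 9 genes in every alternative. Depth limits Cst7, Spp1, Axl and Itgax, with 88, 210, 34 and 27 UMIs in microglia.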
